A study of Mus musculus with 4 samples.

Results

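The granins and the small proteins that share their granules are described here in proximal mouse colon with and without epithelial Nkx2-2. They are 8 genes, Chga, Chgb, Scg2, Scg3, Scg5, Vgf, Pcsk1n and Resp18, chosen by symbol from the 23699 gene rows of the deposited tables. Each was found once, and all 8 passed the filter on low values (0.5 FPKM or more, averaged over the libraries), which left 13997 genes for testing. FPKM are counts of fragments made relative to transcript length and library size, so levels can be set side by side between genes. The mutant group holds 2 libraries of genotype Nkx2.2flox/flox; Villin-Cre/+, in which the villin promoter drives Cre recombinase in the gut epithelium. The control group holds 2 libraries of genotype Nkx2.2flox/+, for which no Cre is listed, so every animal carried a floxed allele and Cre itself differs between the groups. All libraries came from the 2 cm of colon next to the caecum, at 6 weeks of age, on a mixed strain.

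Granins are acidic proteins that aggregate with calcium in the trans-Golgi network, where dense-core secretory granules form, and they are stored and released together with hormones. Enzymes of the granule cut many of them into peptides. In the gut they mark enteroendocrine cells, above all the serotonin-making enterochromaffin cells, and several are also made by neurons. Nkx2-2 is a homeodomain protein that helps set which hormone such cells make.

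Nkx2-2 itself was at 0.125 and 0.351 FPKM in the mutant libraries, against 0.724 and 0.609 FPKM in the control libraries. Both mutant values were the lower ones, but the difference did not pass the test (log2 change −0.68, SE 0.32, limma adjusted p = 0.825). The log2(FPKM + 0.5) scale of that test understates the change of so low a gene, with means of 0.238 FPKM in mutants and 0.667 FPKM in controls. The counting intervals imply 1.00 and 4.66 fragments in mutants and 16.4 and 15.4 in controls. Epithelial RNA was abundant in every library, with 10 marker genes summing to 8485 and 9555 FPKM in mutants and 8470 and 10157 FPKM in controls, and 6 smooth muscle markers were also present in all 4. Mutant 1 was sequenced to 0.464 of the depth of control 1, judged from coverage per FPKM, against 1.03 in mutant 2 and 1.13 in control 2. Control 1 stood apart in 8 B cell markers, which summed to 14.5 and 11.3 FPKM in the mutants and to 136.7 FPKM in control 1, against 9.10 FPKM in control 2. Rmrp, the RNA part of the RNase MRP enzyme, was higher in the mutants, at 229.2 and 319.3 FPKM, than in the controls, at 36.7 and 32.5 FPKM, and its part in the values of the granule genes was not tested. No label ties a library to its own animal, and the p-values therefore describe only how far these libraries vary.

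In mutant colon, chromogranin A and chromogranin B RNA fell to a small part of the control level. The other 6 genes differed less or not detectably. Chga fell 7.90-fold and Chgb fell 11.5-fold on the log2(FPKM + 0.5) scale. Of the others, 5 had lower values in both mutant libraries than in both control libraries, without passing the test, and Scg5 overlapped between the groups. By limma, 2 of the 8 were called lower (adjusted p under 0.05), against 0.0286% of the 13997 genes (0.0643% in either direction). At an unadjusted p under 0.05 in limma, 6 of the 8 were lower, against 4.12% of all tested genes. All 8 log2 changes were below 0, as were 82.6% of those of all tested genes. Both mutant libraries lay below both control libraries in 7 of the 8, against 35.1% of all tested genes, and above them in 0 of the 8, against 3.39%. After median ratio rescaling it was again 7 of the 8, against 16.2% of all tested genes. In bulk tissue, fewer cells of a type and less RNA per cell cannot be told apart.

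**Figure D1:**
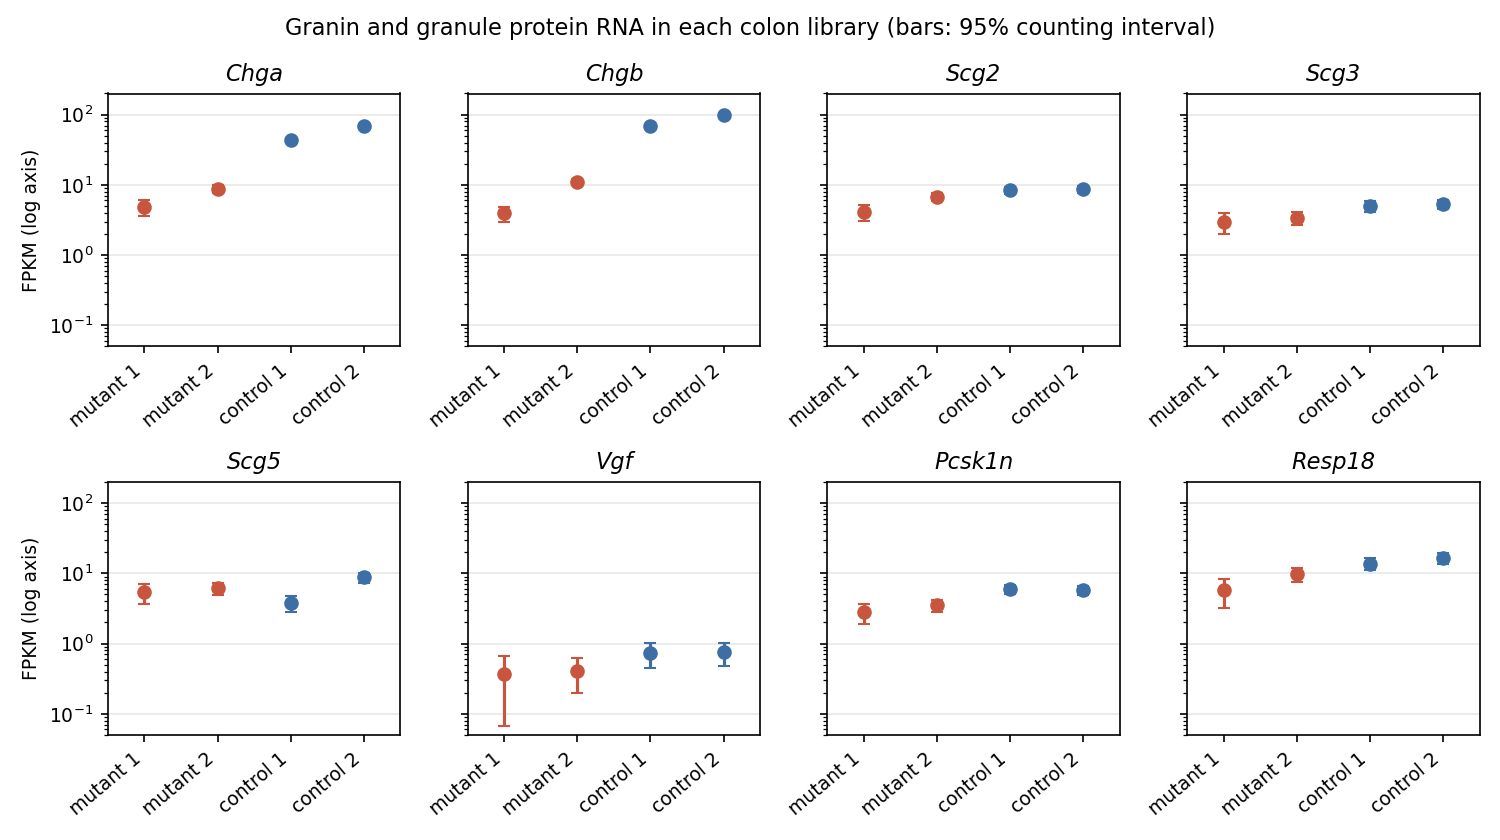
FPKM of the 8 genes in each library on a log axis, mutant libraries in red and control libraries in blue, with the authors' 95% counting intervals as bars. Chga and Chgb lie between 3.91 and 11.1 FPKM in the mutants and between 43.4 and 97.8 FPKM in the controls, while the Scg5 values of the mutants lie between those of the controls.

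Chromogranin A, which is stored in enterochromaffin granules and cut into peptides such as catestatin, had 4.87 and 8.69 FPKM in the mutant libraries. In the control libraries Chga had 43.4 and 69.8 FPKM. The groups were far apart, with the higher mutant value at 15.4% of the control mean and the lower one at 8.61%. Chga averaged 6.78 ± 2.70 FPKM in mutants and 56.6 ± 18.7 FPKM in controls (SD, n = 2 each). Its log2 change was −2.98 (SE 0.31, 95% interval −3.70 to −2.27, limma adjusted p = 0.0163), and the values rest on 57.0 and 226.0 fragments in mutants and 1093 and 1985 in controls, as the counting intervals imply. The gene lies on the plus strand of chromosome 12 from 103793179 to 103803237 (mm9), and the files give it 1 transcript of 1882 bases.

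Chromogranin B, a second large acidic granule protein, had 3.91 and 11.1 FPKM in the mutant libraries. The control libraries had 68.7 and 97.8 FPKM of Chgb, the highest level of the 8 genes in each of them. Mutant 1 kept 4.69% and mutant 2 13.3% of the control mean. Chgb averaged 7.50 ± 5.08 FPKM in mutants and 83.3 ± 20.5 FPKM in controls (SD, n = 2 each), a log2 change of −3.53 (SE 0.41, 95% interval −4.46 to −2.60, limma adjusted p = 0.0302). The intervals imply 69.0 and 435.0 fragments in mutants and 2614 and 4196 in controls. Chgb lies on the plus strand of chromosome 2 from 132607014 to 132620808 (mm9), in 1 transcript of 2733 bases.

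The calls of both chromogranins depended on the scaling between libraries and on single libraries, while the log2 change lay at −2.59 or lower for Chga and at −2.83 or lower for Chgb in all 16 alternatives run. After median ratio rescaling, which moves the median change of all genes from −0.17 to −0.01, Chga had a log2 change of −2.82 (limma adjusted p = 0.211) and Chgb −3.36 (0.344). Without mutant 1 the changes were −2.59 for Chga (adjusted p = 0.619) and −2.83 for Chgb (0.250), and without mutant 2 they were −3.37 (0.154) and −4.23 (0.0473). In the authors' deposited table, the fold of mutant over control was 0.0972 for Chgb (adjusted p = 0.00326) and 0.130 for Chga (adjusted p = 0.524, unadjusted 0.000327). Of the 20834 genes with an adjusted p in the authors' deposited table, 0.0384% were called, and 0.0192% were called lower in mutants.

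Resp18 encodes a luminal protein of the secretory pathway of endocrine cells and is related to the granule membrane protein Ptprn. It had 5.72 and 9.65 FPKM in the mutant libraries and 13.7 and 16.5 FPKM in the control libraries. The groups did not overlap. Means were 7.69 ± 2.78 FPKM in mutants and 15.1 ± 1.98 FPKM in controls (SD, n = 2 each). The log2 change of −0.96 (SE 0.26, 95% interval −1.57 to −0.36) did not pass over all genes (limma adjusted p = 0.825, unadjusted 0.00621), and mutant 1 rests on 20.0 fragments. Without mutant 1 the log2 change was −0.61. The gene lies on chromosome 1, minus strand, from 75268777 to 75274955 (mm9), with a transcript of 710 bases, the shortest of the 8 genes.

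Pcsk1n encodes proSAAS, a granule protein and inhibitor of the prohormone convertase Pcsk1. Pcsk1n had 2.81 and 3.54 FPKM in the mutant libraries, against 5.89 and 5.78 FPKM in the control libraries. Control values lay close together and above both mutant values. The means were 3.17 ± 0.513 FPKM in mutants and 5.84 ± 0.0754 FPKM in controls (SD, n = 2 each), and the log2 change was −0.79 (SE 0.22, 95% interval −1.30 to −0.29, limma adjusted p = 0.825, unadjusted 0.00679). Its target Pcsk1, which cuts prohormones, had 7.06 and 13.47 FPKM in mutants and 13.49 and 17.9 FPKM in controls, with a log2 change of −0.64 (limma adjusted p = 0.825). Pcsk1n lies on chromosome X, plus strand, from 7496948 to 7501536 (mm9).

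Secretogranin II, the precursor of the neuropeptide secretoneurin, is encoded by Scg2. Scg2 had 4.08 and 6.73 FPKM in the mutant libraries and 8.31 and 8.71 FPKM in the control libraries. All mutant values were below the controls, and mutant 2 reached 79.1% of the control mean while mutant 1 reached 48.0%. The log2 change was −0.65 (SE 0.26, 95% interval −1.23 to −0.06, limma adjusted p = 0.825, unadjusted 0.0350). Without mutant 1 it was −0.32, and without mutant 2 it was −0.98. The gene spans 79431244 to 79436665 on the minus strand of chromosome 1 (mm9).

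Secretogranin III, encoded by Scg3, binds chromogranin A and the granule membrane. Scg3 had 2.96 and 3.38 FPKM in the mutant libraries and 4.98 and 5.26 FPKM in the control libraries. The values of each group lay close together and the groups did not overlap. Means were 3.17 ± 0.295 FPKM in mutants and 5.12 ± 0.201 FPKM in controls (SD, n = 2 each), and the log2 change was −0.62 (SE 0.22, 95% interval −1.12 to −0.12, limma adjusted p = 0.825, unadjusted 0.0205). Scg3 lies on chromosome 9, minus strand, from 75491173 to 75531863 (mm9).

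Scg3 is the only one of the 8 genes with more than 1 RefSeq transcript in the files, and the transcripts differ by 15 bases in length. The longer transcript, NM_009130 of 2207 bases, was estimated at about 0 in the mutants, with upper bounds of its 95% intervals at 0.143 FPKM in mutant 1 and 0.0644 FPKM in mutant 2. In the controls it had 1.01 FPKM (interval 0.521 to 1.50) and 2.16 FPKM (interval 1.52 to 2.79), or 20.3% and 40.9% of the gene. The shorter transcript, NM_001164790 of 2192 bases, had 2.96 and 3.38 FPKM in mutants and 3.97 and 3.11 FPKM in controls, so its values overlapped between the groups. In the limma fit over 16903 transcripts, NM_009130 had a log2 change of −2.0 (SE 0.49, adjusted p = 0.853, unadjusted 0.00973) and NM_001164790 one of −0.13 (SE 0.25, adjusted p = 0.902). Such a split between near-identical transcripts rests on the few fragments that tell them apart. Of 10984 transcripts of genes with several, 44 were under 0.01 FPKM in both mutants and at 1 FPKM or more in both controls, and 23 showed the reverse.

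Vgf encodes a nerve-growth-factor-inducible precursor of several peptides in neurons and endocrine cells, and was the least abundant gene in every library. It had 0.366 and 0.412 FPKM in the mutant libraries and 0.736 and 0.753 FPKM in the control libraries. The groups did not overlap, but the values rest on 6.00 and 15.0 fragments in mutants and 26.0 and 30.0 in controls. The counting intervals of mutant 1 (0.0671 to 0.665 FPKM) and control 1 (0.447 to 1.03 FPKM) overlap. The log2 change was −0.49 (SE 0.29, 95% interval −1.14 to 0.17, limma adjusted p = 0.825), a scale that understates the change of so low a gene. Vgf lies on chromosome 5, plus strand, from 137506165 to 137509221 (mm9).

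Scg5 encodes the chaperone that escorts the prohormone convertase Pcsk2 and inhibits it until it reaches the granule. Scg5 had 5.34 and 6.14 FPKM in the mutant libraries and 3.78 and 8.73 FPKM in the control libraries. Both mutant values lay between the control values, which differed from each other more than the groups did. The log2 change was −0.01 (SE 0.34, limma adjusted p = 0.993), and its 95% interval from −0.80 to 0.77 leaves room for a change of either sign. It was 0.54 without control 2 and −0.57 without control 1. Pcsk2 was low, at 0.662 and 0.553 FPKM in mutants and 0.805 and 0.674 FPKM in controls. Scg5 lies on chromosome 2, minus strand, from 113616470 to 113669248 (mm9).

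**Figure D2:**
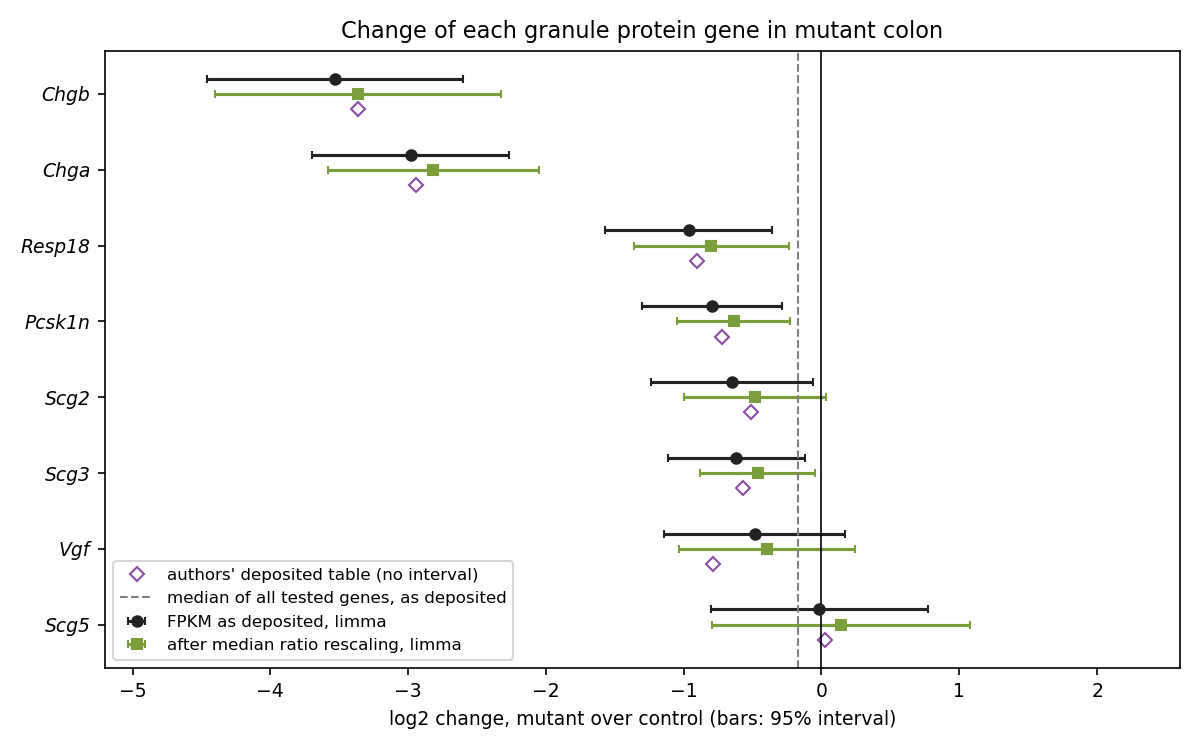
Log2 change of each gene, mutant over control, with its 95% interval, for FPKM as deposited (black circles) and after median ratio rescaling (green squares), and the authors' own value (open diamonds). Chgb and Chga lie at −3.53 and −2.98, the next gene at −0.96, and the sign of Scg5 differs between the scalings, at −0.01 as deposited and 0.14 after rescaling.

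The make-up of granule protein RNA shifted with the fall of Chga and Chgb, and is not a separate result. Chga and Chgb together held 29.2% and 39.9% of the summed FPKM of the 8 genes in the mutant libraries, against 75.0% and 78.6% in the control libraries. Resp18 held 19.0% and 19.5% in mutants and 9.15% and 7.72% in controls, and Scg5 held 17.8% and 12.4% in mutants and 2.53% and 4.09% in controls. These shares rose as the sum fell, while Resp18 itself had lower FPKM in mutants and Scg5 overlapped between the groups. The pair summed to 14.3 ± 7.78 FPKM in mutants and 139.8 ± 39.2 FPKM in controls (SD, n = 2 each). The other 6 genes summed to 25.6 ± 6.06 FPKM in mutants and 41.5 ± 5.89 FPKM in controls. The ratio of Chgb to Chga was 0.802 and 1.28 in mutants and 1.58 and 1.40 in controls. With 2 libraries a group, an exact permutation test cannot go below a p of 0.3333, so these sums were not tested.

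In the mutants, the order of mean levels was Resp18, Chgb, Chga, Scg5, Scg2, Pcsk1n, Scg3 and Vgf. The values of neighbouring genes overlapped between the libraries except between Scg2 and Pcsk1n and between Scg3 and Vgf. In the controls the order was Chgb, Chga, Resp18, Scg2, Scg5, Pcsk1n, Scg3 and Vgf. There Chga stood clear of Resp18, Resp18 of Scg2, Pcsk1n of Scg3 and Scg3 of Vgf, and the other neighbours overlapped. By mean level, Chgb was above 45.3% of all tested genes in mutants and above 91.3% in controls, and Chga was above 42.8% in mutants and above 87.2% in controls.

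**Figure D3:**
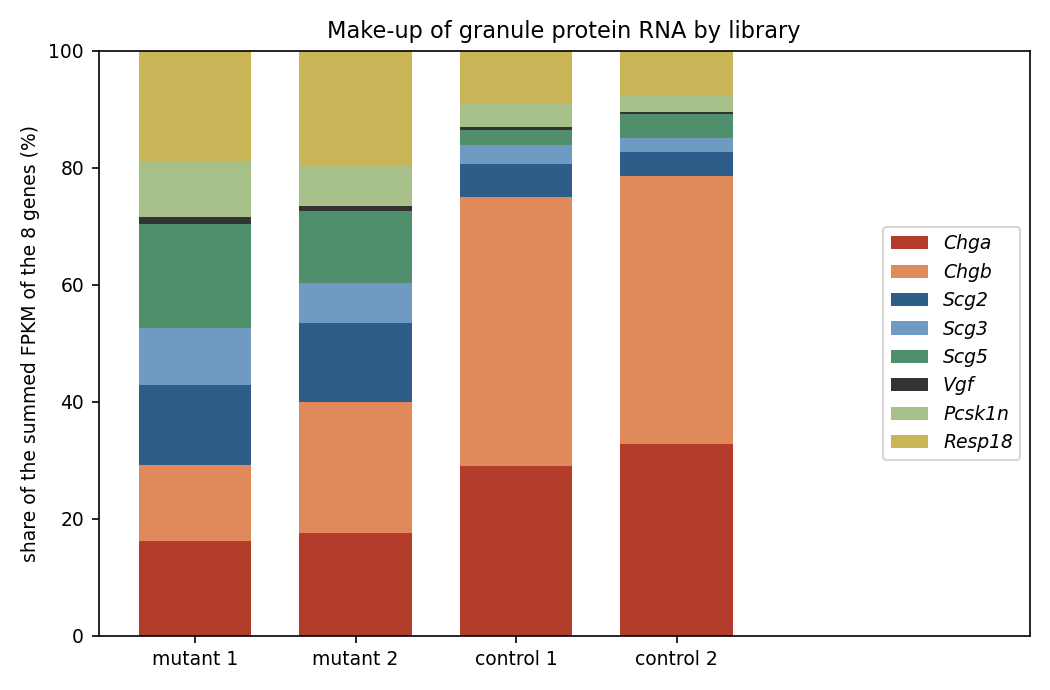
Share of each gene in the summed FPKM of the 8 genes (stacked bars, %), mutant libraries left of the control libraries. The 2 lowest segments, Chga and Chgb, fill 29.2% and 39.9% of the mutant bars and 75.0% and 78.6% of the control bars.

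**Figure D4:**
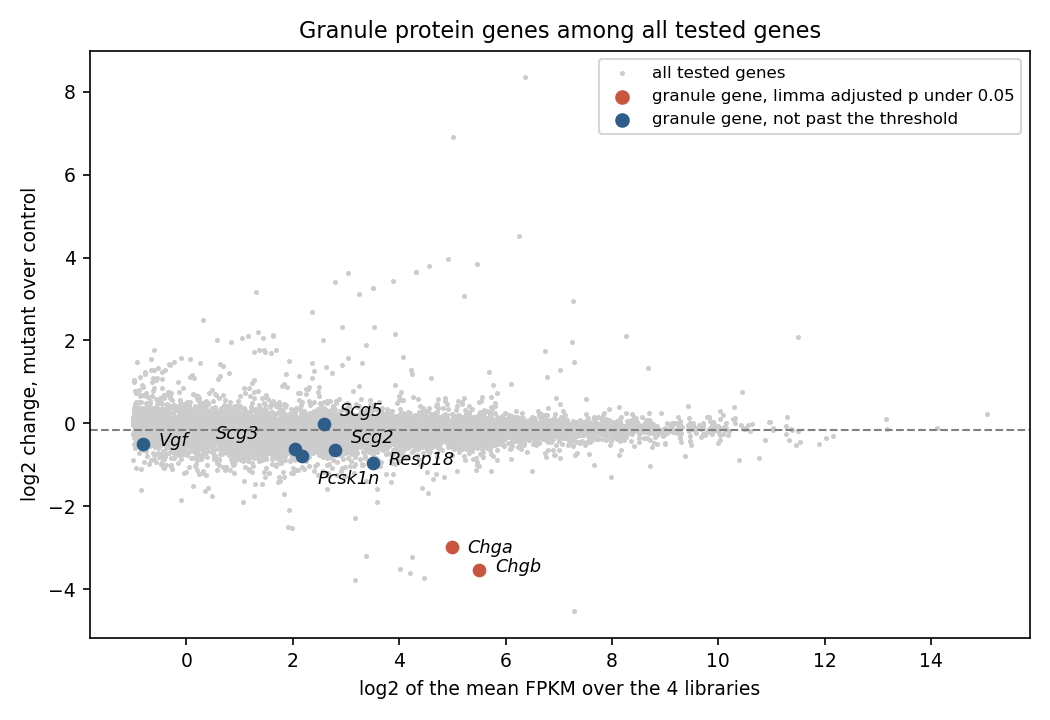
Log2 change, mutant over control, against the log2 of the mean FPKM over the 4 libraries for all 13997 tested genes (grey), with the 8 genes marked in red where called and in blue where not. The dashed line is the median change of all tested genes at −0.17, and Chga at −2.98 and Chgb at −3.53 lie far below it.

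The start regions of the chromogranins are shown because both genes fell. Those of Scg2 and Scg5, which differed less or overlapped, are the other windows that held the motif core below. Granin genes are known for cAMP response elements near their start, the site of CREB family factors. The 250 bases before the start are given 5′ to 3′ from RefSeq (build GRCm38.p6), with the core TGACGT, on either strand, in capitals. RefSeq gave a window for 7 of the 8 genes, all but Vgf. The windows are chr12:102554691-102554940 (plus strand) for Chga, chr2:132781392-132781641 (plus strand) for Chgb, chr1:79440027-79440276 (minus strand) for Scg2 and chr2:113829092-113829341 (minus strand) for Scg5.
Chga: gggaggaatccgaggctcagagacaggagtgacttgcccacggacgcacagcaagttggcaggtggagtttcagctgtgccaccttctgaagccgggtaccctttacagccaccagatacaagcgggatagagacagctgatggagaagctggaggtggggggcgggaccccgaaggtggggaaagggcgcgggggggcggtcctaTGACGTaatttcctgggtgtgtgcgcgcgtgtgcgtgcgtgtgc
Chgb: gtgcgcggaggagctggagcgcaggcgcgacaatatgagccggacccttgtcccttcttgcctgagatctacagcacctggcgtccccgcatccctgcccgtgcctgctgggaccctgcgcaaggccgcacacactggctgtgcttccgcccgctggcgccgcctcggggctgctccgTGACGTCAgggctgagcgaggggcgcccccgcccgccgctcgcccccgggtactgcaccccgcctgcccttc
Scg2: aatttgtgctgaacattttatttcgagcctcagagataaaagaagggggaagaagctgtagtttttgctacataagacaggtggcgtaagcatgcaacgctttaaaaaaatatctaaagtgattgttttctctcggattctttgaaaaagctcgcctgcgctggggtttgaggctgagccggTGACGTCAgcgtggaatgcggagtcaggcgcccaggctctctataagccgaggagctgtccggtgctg
Scg5: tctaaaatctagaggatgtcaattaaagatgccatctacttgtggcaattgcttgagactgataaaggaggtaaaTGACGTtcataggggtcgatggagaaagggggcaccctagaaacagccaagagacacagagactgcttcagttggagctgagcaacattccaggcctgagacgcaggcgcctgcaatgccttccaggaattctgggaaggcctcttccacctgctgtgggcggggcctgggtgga

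The full palindromic element TGACGTCA began 72 bases before the start in Chgb and 68 bases before it in Scg2, and it occurs in 1.55% of 32851 mouse windows of the same length. The core TGACGT, which the full element contains on both strands, also began 44 bases before the start in Chga and 175 bases before it in Scg5, and occurs in 6.47% of windows. Scg3, Pcsk1n and Resp18 held neither. The motif TNAAGTG, bound by homeodomain factors of the NK2 class, was searched on both strands and found once, in Scg2 at 136 bases before the start, against 10.1% of windows. The E-box CANNTG, bound by factors such as Neurod1, was found 3 times in each of Chga, Scg5 and Resp18. It was found once in each of Chgb, Scg2 and Pcsk1n and not in Scg3, and is present in 66.2% of windows. These are matches of letters in a short window. Both called genes and Scg2 and Scg5 held the cAMP response core, while Scg3, Pcsk1n and Resp18 did not. The part of the core in the changes was not tested.

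The genes whose profile over the 4 libraries was most like that of the chromogranins were sought among the tested genes other than the 8, by the Euclidean distance between log2(FPKM + 0.5) values taken relative to each gene's control mean. For Chgb the nearest was Tph1, the rate-limiting enzyme of serotonin synthesis, at a distance of 0.43. Tph1 had 0.354 and 1.40 FPKM in mutants and 15.4 and 18.8 FPKM in controls. Insl5, a relaxin-family hormone made in the colon, was nearest to Chga at 1.07 and second nearest to Chgb at 1.89 among those genes. Insl5 had 0.903 and 0.677 FPKM in mutants and 6.29 and 7.18 FPKM in controls. Among those genes the third nearest to both was Wif1, which encodes a secreted Wnt inhibitor, at 1.61 from Chga and 2.45 from Chgb, with 0 and 0.222 FPKM in mutants and 1.18 and 2.31 FPKM in controls (log2 change −1.85, limma adjusted p = 0.375). Chga and Chgb lay 0.90 apart and were each other's nearest of the 8 genes, which for Chga is closer than Insl5 and for Chgb farther than Tph1. Among the 8 genes Scg3 and Vgf were also nearest to each other, at 0.20, though the pseudocount of 0.5 compresses the profile of so low a gene as Vgf. Profiles relative to the control mean depend largely on the size of the change in mutants. Chga, Chgb, Tph1 and Insl5 are the 4 genes called lower in limma, so their nearness is not a separate result.

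The log2 changes of other genes of the granule pathway were smaller than those of the chromogranins. Of 10 tested prohormone-processing enzymes 0 passed the test in limma. At an unadjusted p under 0.05 in limma, 2 were lower, against 4.12% of all tested genes, and 0 higher. In 6 both mutants lay below both controls, against 35.1% of all tested genes. This list had a median log2 change of −0.19, against −0.17 over all tested genes and −0.72 over the 8 granule proteins. Cpe, the carboxypeptidase that trims cut prohormones, had 43.5 and 48.2 FPKM in mutants and 67.9 and 65.0 FPKM in controls (log2 change −0.53, limma adjusted p = 0.825). Of 19 tested genes of the granule membrane and of release 0 passed in limma, and the median was −0.25. At an unadjusted p under 0.05 in limma, 3 of the 19 were lower, again against 4.12%, and 0 higher. In that list both mutants lay below both controls in 12 genes and above them in 1. Slc18a1, a vesicular monoamine transporter picked with its values known, had 0.688 and 1.92 FPKM in mutants and 2.92 and 3.82 FPKM in controls (log2 change −1.18, limma adjusted p = 0.825, unadjusted 0.0101). Snap25, a membrane fusion protein picked in the same way, had 1.87 and 3.81 FPKM in mutants and 4.94 and 5.82 FPKM in controls (log2 change −0.88, limma adjusted p = 0.825, unadjusted 0.0203). Slc18a2, a further vesicular monoamine transporter of that list, overlapped between the groups. It had 1.75 and 1.68 FPKM in mutants and 1.77 and 1.65 FPKM in controls (log2 change 0.0027, limma adjusted p = 0.998). Cyb561, an electron carrier of the granule membrane, had 50.6 and 57.3 FPKM in mutants and 57.4 and 60.3 FPKM in controls. The 1 gene above was Scgn, which encodes a calcium sensor, with higher values in both mutants, at 10.9 and 10.8 FPKM, than in the controls, at 7.51 and 8.57 FPKM (log2 change 0.42, limma adjusted p = 0.825).

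Hormone genes, which share the granules, differed in both directions. Of 12 tested peptide hormone genes 1 was called lower (Insl5, log2 change −2.49, limma adjusted p = 0.0140) and 1 higher (Ghrl, the ghrelin gene, log2 change 2.33, limma adjusted p = 0.0163). Over all tested genes 0.0643% were called in either direction. In the list 9 of 12 changes were below 0, against 82.6% of all tested genes, and the median was −0.27. In limma 5 were lower and 2 higher at an unadjusted p under 0.05, against 577 and 98 of the 13997 tested genes. Both mutants lay below both controls in 6 and above them in 2, against 35.1% and 3.39% of all tested genes. Ghrl had 15.3 and 10.8 FPKM in mutants and 2.09 and 2.23 FPKM in controls. Pyy, the peptide YY gene, had 197.7 and 165.7 FPKM in mutants and 57.2 and 96.7 FPKM in controls, without passing the test (limma adjusted p = 0.404). Of 11 tested enteroendocrine transcription factors 0 passed in limma (1 lower and 0 higher at an unadjusted p under 0.05), with a median of 0.01.

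Markers of enterochromaffin cells, enteric neurons and enteric glia were compared beside these values. Of 7 tested enterochromaffin markers 1 was called lower, Tph1 (log2 change −3.79, limma adjusted p = 0.0140), and 5 had both mutants below both controls, against 35.1% of all tested genes. Both mutants lay above both controls in 1, Trpa1, against 3.39% of all tested genes, and Fev overlapped. Trpa1 had 0.917 and 0.952 FPKM in mutants and 0.557 and 0.682 FPKM in controls. At an unadjusted p under 0.05 in limma 5 of the 7 were lower, against 4.12% of all tested genes. The median of these markers was −0.81, beside −0.72 over the 8 granule proteins. The 10 markers summed to 38.6 and 42.2 FPKM in mutants and 79.7 and 87.7 FPKM in controls, with Ucn3 listed at 0 in mutant 2 and control 1. Of 19 tested enteric neuron markers 0 passed in limma (3 at an unadjusted p under 0.05, all lower) and 10 had both mutants below both controls, again against 35.1%, with a median of −0.42. The 22 neuron markers summed to 74.9 and 102.0 FPKM in mutants and 112.8 and 137.6 FPKM in controls, with Th listed at 0 in mutant 2 and control 2. Vip, a neuropeptide gene, had 26.2 and 33.5 FPKM in mutants and 30.4 and 50.2 FPKM in controls. The 8 enteric glia markers summed to 78.1 and 70.9 FPKM in mutants and 88.2 and 95.2 FPKM in controls, 0 passed in limma (3 at an unadjusted p under 0.05), 6 had both mutants below both controls and the median was −0.55. Most of that sum was Erbb3, a neuregulin receptor subunit, at 59.1 and 47.5 FPKM in mutants and 56.8 and 64.7 FPKM in controls, and all but Erbb3 and Entpd2 lay between 0.119 and 2.92 FPKM in every library. Several of the 8 granule genes are made by neurons too, and the part of neuron content in their values was not tested.

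**Figure D5:**
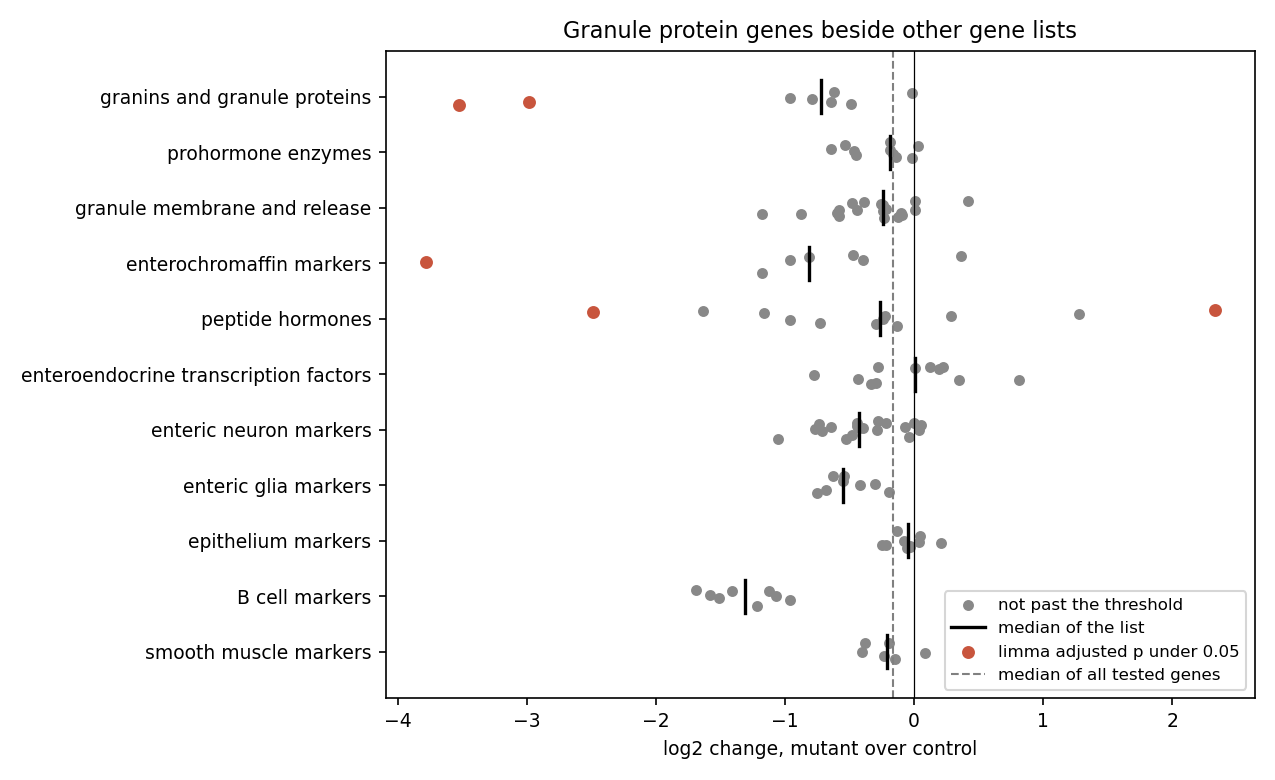
Log2 change, mutant over control, of every tested gene of the granule protein list and of 10 other lists, with called genes in red and list medians as black bars. The granule proteins have a median of −0.72 and the dashed line marks the median of all tested genes at −0.17.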

How the data were processed

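RNA of proximal colon was measured in 4 libraries, 2 mutant and 2 control, grouped by the sample titles. Per the labels' protocols, total RNA was taken with a column kit and libraries were made with the TruSeq RNA kit. Build mm9 and the tools bcl2fastq 1.8.4, Cufflinks, TopHat and DESeq are named in the submitters' processing notes. Per the file headers, the authors deposited FPKM with 95% intervals for genes and transcripts, and the coverage signal of each transcript. A further table deposited by the authors compares the groups, with mean normalized counts per group (a signal, with no counts per library), the fold as a ratio, its log2 and the p-value, raw and adjusted.

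Of 23699 rows, 306 not marked OK in every library were left out, and rows sharing a symbol were summed (23074 symbols). Those averaging 0.5 FPKM or more were put on the log2(FPKM + 0.5) scale and tested in limma 3.58.1 under R 4.3.3, with a variance trend and Benjamini-Hochberg adjustment over all 13997 genes at 0.05. Residual degrees of freedom were 2, and prior ones had a median of 6.27. The row of Nkx2-2, under the filter, was added to the same fit. The files hold no counts, so no count model was fitted. Fragments were taken from the width of the intervals and cover counting error only, as the intervals do. The fit was tested on simulated data. The alternatives were other pseudocounts, filters, scalings, variance models and row handling, a replicate block, leaving out each library and the authors' deposited table. The transcript fit was run apart from them.

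The 8 genes and the lists were chosen with earlier results of these data known. The naming rule takes the 8 genes, Nkx2-2, the list genes past the threshold, the 2 most abundant tested genes of each list (those tied to a result are printed) and the 3 nearest profiles of Chga and Chgb. Pcsk1, Pcsk2, Rmrp, Scgn, Slc18a1, Slc18a2, Snap25, Trpa1, Fev and Ptprn are named for their tie to a result, after their values were seen.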

Additional observations from a re-analysis of the deposited data

How the results depend on the processing

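In all 16 alternatives run for each, Chga and Chgb stayed lower in mutants, with log2 changes from −3.37 to −2.59 and from −4.23 to −2.83. The call held in 8 of 16 for Chga and in 10 of 16 for Chgb, counts that include the replicate block and the fits with a library left out. Among the other fits, both calls held with other pseudocounts, a filter at 2 FPKM and other row handling. Both were lost with no filter, after median ratio rescaling, after quantile normalization, without a variance trend and with a robust prior. In the authors' deposited table Chgb was called and Chga was not. Scg2, Scg3, Pcsk1n and Resp18 were below 0 in 16 of 16 and Vgf in 15 of 15. Scg5 turned to 0.14 after median ratio rescaling, 0.20 after quantile normalization, 0.54 without control 2, 0.077 without mutant 1 and 0.022 in the authors' deposited table. It ran from −0.57 to 0.54 with each library left out. The cause was not tested.

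Of the 8 genes, 2 passed in the limma fit as reported. The number was 0 with no filter, after median ratio rescaling, after quantile normalization, without a variance trend and with a robust prior. In that order, limma gave 5, 5, 4, 7 and 6 of the 8 genes an unadjusted p under 0.05. Over all genes these fits gave it to 1084 of 23074 with no filter, then to 456, 486, 672 and 737 of 13997. In the authors' deposited table the number of the 8 that passed was 1. With each library left out it ran from 0 (without mutant 1) to 2. Over all genes 9 passed, against 0 by limma with no filter (1084 with an unadjusted p under 0.05), 3 after median ratio rescaling and 3 after quantile normalization, and from 8 to 362 with each library left out (8 without mutant 1, 362 without control 2, 124 without control 1, 12 without mutant 2). As deposited, 4 of the 9 calls were lower in mutants, and after rescaling 0 of 3. In the transcript fit, with the same values, 0 of the 9 transcripts of the 8 genes passed in limma (with 5 whose unadjusted p was under 0.05), with adjusted p-values of 0.396 for Chga and 0.436 for Chgb.

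The replicate numbers come with no label that pairs libraries, and same-numbered deviations from the group means correlated at −0.0022 over genes. With the replicate block 195 of the 13997 tested genes passed in limma, 109 of them lower in mutants. Resp18 passed in that limma fit with an adjusted p of 0.0488, which makes 3 of the 8. That paired fit leaves 1 residual degree of freedom, as does each fit with a library left out. Depth limits mutant 1 most, with 6.00 implied fragments for Vgf and 20.0 for Resp18.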

Other observations

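Mutant 2 had a higher FPKM than mutant 1 in 8 of the 8 granule protein genes, as it did in 76.1% of all tested genes. After median ratio rescaling the count was 6 of 8, with Scg3 at 3.36 FPKM in both mutants and Vgf at 0.416 FPKM in mutant 1 and 0.409 FPKM in mutant 2. Both mutants stayed below both controls in 7 of the 8 genes after rescaling, against 16.2% of all tested genes, and the Scg5 values were 6.07 and 6.10 FPKM in mutants against 3.48 and 8.42 FPKM in controls.

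Resp18 lies 7993 bases from Ptprn on chromosome 1 (mm9), the gene of the granule membrane protein it is related to. Ptprn, named after its values were seen, had 1.93 and 2.36 FPKM in mutants and 3.09 and 3.94 FPKM in controls. Its log2 change was −0.60 (SE 0.24), against −0.96 (SE 0.26) for Resp18, and neither passed over all genes (limma adjusted p = 0.825 for each).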
